A study of Sus scrofa with 6 samples.

Results

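CpGs that stay low in methylation far from any promoter were followed in whole pig embryos at embryonic day 21. Of 12219 CpGs with at least 10 reads and both strands called in every embryo, 170 were selected on their measured level, a mean over all 6 embryos under 30%. They lay in intronic or intergenic sequence, 2000 bp or more from any cytosine that the deposited tables assign to a promoter. The SGCE and PEG10 imprinted block and its flanks were left out. The 3 control embryos carried both parental genomes and were untreated. The 3 parthenotes came from eggs activated with electric pulses and carry maternal genomes only. Both groups were Landrace x Yorkshire x Duroc (LYD) pigs. The parthenotes grew in 2 surrogate gilts, and the labels do not say whether embryos of a group were litter mates, so p-values measure only the spread between these embryos. Reads at CpG cytosines numbered 380163 to 406443 in each embryo, over an interval of chromosome 9 that runs from 73250031 to 75349903 in the Sscrofa11.1 build.

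In vertebrates most CpGs outside promoters are methylated. Short stretches of lower methylation far from promoters often mark enhancers, DNA elements that bind transcription factors and raise the expression of a gene at a distance. Dense CpG stretches without methylation are more typical of promoters and CpG islands. A low level alone does not show that a stretch acts as an enhancer, and neither chromatin nor expression was measured in these files. An embryo is a mixture of cell types, so a level between 0 and 100% can come from a share of cells, of chromosomes or of both.

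Low CpGs were rare at this distance from promoters. Of the 10588 intronic or intergenic CpGs as far from promoters, the 170 members made up 1.61%, while 9529 (90.0%) were at 70% or more. The rule fixes the level of the members, which is given as a description. Their mean level was 12.6% over the 6 embryos and their median 12.3%. Of the 170, 56 were under 5%, 23 at 5 to 10%, 44 at 10 to 20% and 47 at 20 to 30%. No methylated read was found in any embryo at 17 of them, 11 of which lie in 1 CpG array and share reads. At the limit, the 3 highest members were at 29.1%, 29.3% and 29.5%, in introns of SGCE and ASB4 and between BET1 and COL1A2. The 3 CpGs just above it were at 30.1%, 30.4% and 30.5%, in introns of CALCR, GNGT1 and PPP1R9A.

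**Figure D1:**
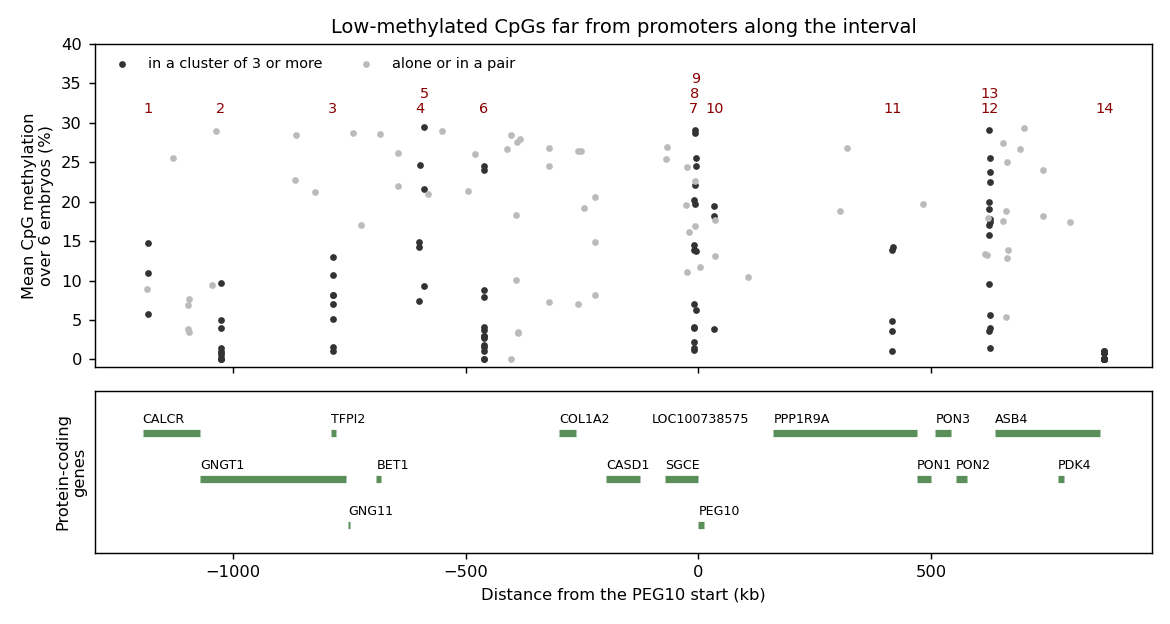
The upper panel gives the mean level of each of the 170 members over 6 embryos (percent) against the distance from the PEG10 start (kb), with the numbers of the 14 clusters in red; the lower panel gives the protein-coding genes. Members in clusters (dark) reach down to 0%, and most members that stand alone or in pairs (grey) lie between 10 and 30%.

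The members were gathered in few places. Neighbours at most 500 bp apart joined 101 of the 170 (59.4%) into 14 clusters of 3 or more, 7 intronic and 7 intergenic. Another 32 stood in 16 pairs and 37 stood alone. The lowest levels lay in clusters: 51 of the 56 members under 5% were in one, against 15 of the 47 at 20 to 30%. The median level was 4.93% in clusters, 17.3% in pairs and 21.3% for CpGs that stood alone. For these 37 CpGs the nearest CpG of sufficient depth lay at a median distance of 130 bp with a median level of 59.6%, and it was at 70% or more for 15. Most of these neighbours are at 30% or more because a member within 500 bp would have joined the run.

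CpG spacing differed with the place of the member. The median distance to the nearest CpG was 11.0 bp for members in clusters and 83.0 bp for the other members. It was 35.0 bp for the 10418 other far CpGs and 9.0 bp for the 284 low CpGs that lay nearer promoters or in other annotated regions. The median number of other CpGs within 100 bp was 4.0, 1.0, 2.0 and 10.0 for these sets. Over all 170 members the medians were 38.0 bp and 2.0 CpGs, near those of the other far CpGs. The split between members in clusters and other members is partly built in, since clusters are runs of members at most 500 bp apart. Of the 101 members in clusters, 19 lie in 1 array with a median spacing of 2.0 bp. The low CpGs nearer promoters had a lower median level, 0.98%. CpGs in one place share reads, so these differences are given without a test.

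By place, the highest shares were between ASB4 and DYNC1I1, with 19 of 84 far CpGs (22.6%, all 19 in 1 CpG array), and in introns shared by GNGT1 and TFPI2, with 8 of 38 (21.1%). Another 25 members lay in introns of SGCE (5.92% of its 422 far CpGs) and 18 between PON2 and ASB4 (7.17% of 251). The 39 members between BET1 and COL1A2 were 1.71% of 2277 CpGs. The introns of PPP1R9A, a long gene for the actin-binding protein neurabin, held 7 of 1671 (0.42%). No member was found among 356 far intronic CpGs of CASD1, 103 of COL1A2, 120 of PON3 and 88 of PON2. Over all far intronic CpGs the share was 1.32% (79 of 5981), at which sets of 88 to 120 CpGs would hold few members. The distance to promoters was also checked with the gene ends of the RefSeq annotation of the same build, which includes noncoding genes. None of the 170 (0) lay within 2000 bp of either end of a gene. The nearest start of a gene with known strand was 3861 to 185445 bp away, and 10000 bp or more for 135. These distances use a single start per gene and miss other starts. In CALCR the member at 73343978 lay 2000 bp from a promoter cytosine but 13208 bp from the nearest such start. Of the 91 members that the tables call intergenic, 12 lay inside the span of the noncoding gene LOC102163402 and 2 inside that of LOC106504955.

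Signs of a sequence variant at the CpG were looked for, since a C-to-T variant reads as lost methylation. A CpG carried one where opposite-strand reads showed 20% or more A in at least 1 embryo, at 10 or more reads. This held for 8 of 170 members (4.71%) and for 285 of the 10418 other far CpGs (2.74%). The levels of the 2 strands differed by a median of 2.47 points in the members, and by over 20 points in none (0 of 170). The read depth of the members, with a median of 28.0 reads, was near that of the other far CpGs at 30.0.

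The cluster with the most members was a CpG array of 19 members in 111 bp (75346338 to 75346448), between ASB4 and DYNC1I1, which encodes a dynein chain. It lay 8719 bp from ASB4, an ankyrin repeat and SOCS box gene, and 86204 bp from the nearest start of a gene with known strand, that of PDK4. Its CpGs followed each other at a median distance of 2.0 bp, so that 1 read covers many of them, and its levels are not 19 separate measurements. The member mean was 0.57%, 0.29% and 0.94% in controls 1 to 3 and 0.49%, 0% and 0% in parthenotes 1 to 3. All 6 embryos were near 0 and the groups overlapped. Summed over its CpGs and all embryos, 8 of 2223 calls were methylated (0.36%), but a read counts once for each CpG it covers, so no interval is given for this sum. At the deepest CpG of the array in each, the 0 methylated reads of 25 in parthenote 2 and of 34 in parthenote 3 allow levels of up to 12.0% and 8.82% (the level that 3 reads would give, for counting error only). CpGs at 70% or more bounded the low stretch, which was 1029 bp long.

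The intergenic cluster between BET1, a vesicle transport gene, and COL1A2, a chain of type I collagen, held 14 members in 770 bp (74012792 to 74013561). It lay 160923 bp from the COL1A2 start, farther than any other cluster from the start of a gene with known strand. Its mean level was 6.42%, 7.62% and 6.96% in the controls and 6.78%, 2.64% and 6.44% in the parthenotes. Parthenote 2 was lowest and the other 5 embryos lay close together. The level was not even along the stretch. The first 11 members, up to position 74013185, were at 0 to 8.85%, and the last 3 were at 24.0%, 7.85% and 24.5%. Among them lay 5 deep CpGs at 40.3 to 73.1%, which are no members.

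In GNGT1, which encodes a G protein gamma subunit, 10 members lay within 447 bp of an intron (73447435 to 73447881), 43788 bp from the gene start. The cluster was at 2.27%, 1.10% and 0.98% in the controls and at 5.03%, 1.25% and 2.86% in the parthenotes. Parthenote 1 was highest and the groups overlapped. Of the 10 members, 3 had no methylated read in any embryo. One deep CpG among them, at 36.7%, is no member. The low stretch between CpGs at 70% or more was 1248 bp long.

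A cluster of 8 members in introns (73688179 to 73688768) lay inside TFPI2, which encodes a Kunitz-type protease inhibitor and is nested within the span of GNGT1. Here the annotation of the members needs care. The cluster lay 5895 bp from the annotated TFPI2 start, exons of TFPI2 lie between and beside its members, and the rule left exonic CpGs out. The members were at 5.79%, 7.84% and 6.97% in the controls and at 11.0%, 2.18% and 7.43% in the parthenotes. The 33 exonic CpGs of the same low stretch (73688372 to 73689139), on which the rule did not draw, were lower still. With reads pooled, the members were at 2.51 to 11.8% over the embryos. Pooled likewise, the exonic CpGs were at 2.03%, 1.60% and 1.03% in the controls and at 1.43%, 1.70% and 1.56% in the parthenotes. Each embryo had 501 to 706 reads at these exonic CpGs. The groups differed by 0.012 points, within the spread of the embryos (exact permutation p = 1, 2-sided; the smallest possible is 0.1). The whole stretch, 1484 bp between CpGs at 70% or more, held 49 CpGs, more than any other cluster's stretch. The plot of levels around the 5 clusters with the most members shows the low CpGs running on past the members there.

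**Figure D2:**
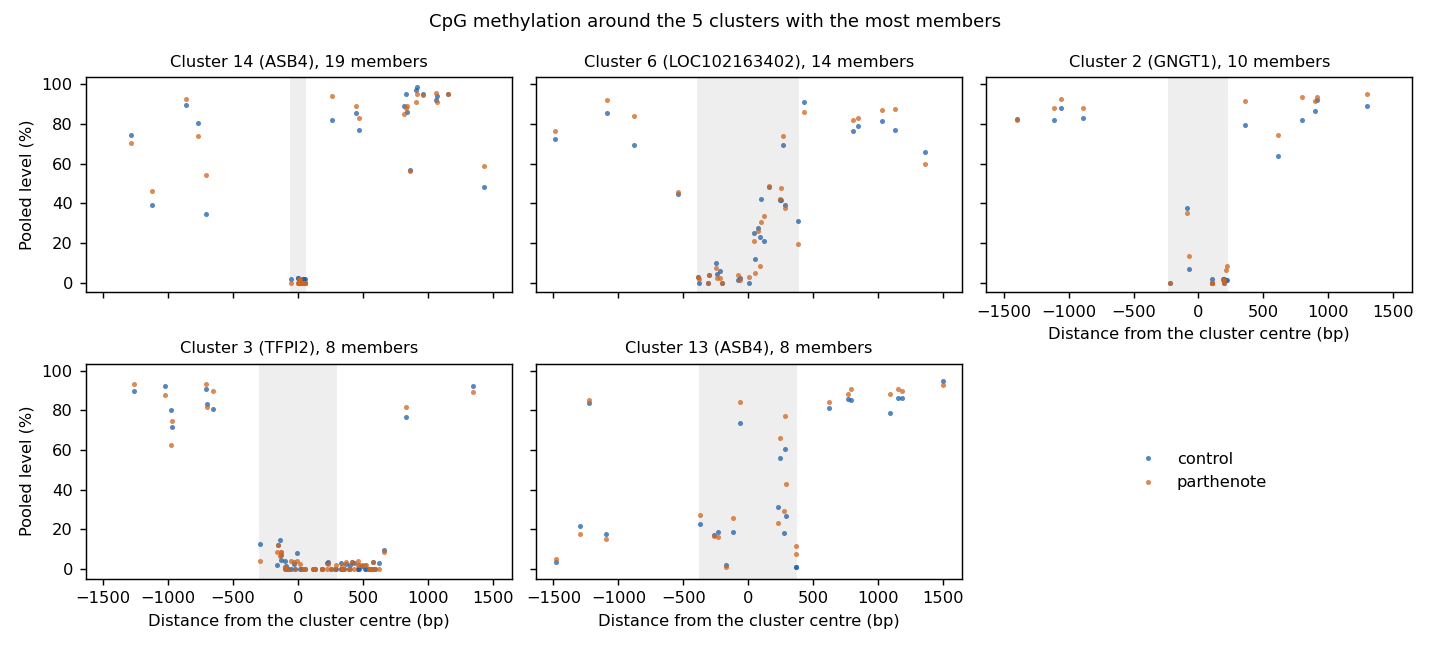
Each point is the pooled level of a CpG (percent) in 3 controls (blue) or 3 parthenotes (orange) against its distance from the cluster centre (bp), for the 5 clusters with the most members; the grey band is the span of the members. In both groups levels lie near 0% within the band of cluster 14 and at most CpGs of clusters 2 and 3, rise within the band of cluster 6, vary within that of cluster 13 upstream of ASB4, and stay near 0% beyond the band of cluster 3 in TFPI2.

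Intronic sequence of SGCE, which encodes epsilon-sarcoglycan, held 3 of the 10 largest clusters within 4492 bp (74464136 to 74468627), 5277 to 9713 bp from the SGCE start. SGCE is imprinted in mammals and expressed from the paternal chromosome. The first of the 3, with 5 members in 56 bp, was at 6.62%, 7.49% and 3.85% in the controls and at 1.33%, 0.50% and 1.43% in the parthenotes. Of the 14 clusters it was the one in which the embryos of the groups did not overlap. Over all CpGs, 1.47% had groups apart in this direction, and 0.419% of all 500 bp windows. The means were 5.99% ± 1.9 (SD, n = 3) and 1.09% ± 0.51 (SD, n = 3), a difference of -4.9 points. The 500 bp window that holds it differed by -4.71 points over all its CpGs and was not called by edgeR (adjusted p = 0.995). Over all CpGs of its 752 bp low stretch, with reads pooled, the sign was the other way. The controls were at 21.7%, 23.5% and 31.0% and the parthenotes at 24.7%, 27.0% and 29.6%, and the groups overlapped.

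The second SGCE cluster, with 7 members over 864 bp (74465379 to 74466242), spread widely within both groups. It was at 23.9%, 10.9% and 24.2% in the controls and at 26.0%, 16.3% and 8.71% in the parthenotes. The third, with 5 members over 858 bp (74467770 to 74468627), was at 17.2%, 15.8% and 17.5% in the controls and at 11.4%, 24.5% and 24.5% in the parthenotes. In both the groups overlapped. Parthenote 1 was the highest parthenote in the second and the lowest in the third. Over all 48 deep CpGs of the 4492 bp, members or not, controls were at 40.2% ± 5.51 (SD, n = 3). Parthenotes were at 41.6% ± 1.95 (SD, n = 3), so these groups differed by less than their spread. The 29 of these CpGs that are no members, which the rule puts at 30% or more, had a mean of 58.1%.

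A pair of clusters lay upstream of ASB4, 9413 to 10880 bp from its start, with 15 members in 2467 bp (75098488 to 75100954). ASB4 takes part in ubiquitin-dependent protein breakdown and is imprinted in the mouse. The farther cluster, with 7 members, was at 18.4%, 14.5% and 18.5% in the controls and at 18.4%, 11.7% and 16.3% in the parthenotes. The nearer one, with 8 members (75100213 to 75100954), was at 17.0%, 10.3% and 11.3% in the controls and at 16.8%, 15.6% and 17.4% in the parthenotes. In the nearer cluster control 1 lay among the parthenotes and the other 2 controls below them. The difference was 3.75 points, with means of 12.9% ± 3.6 (SD, n = 3) and 16.6% ± 0.91 (SD, n = 3). The 10 deep CpGs between the 15 members were at 34.1 to 84.5%. With these included, the 25 deep CpGs of the 2467 bp were at 35.2%, 33.9% and 34.2% in the controls and at 37.6%, 36.2% and 38.9% in the parthenotes, so that the groups did not overlap. The same held for the low stretch around the nearer cluster, with reads pooled, at 27.1%, 28.3% and 23.9% against 32.2%, 31.0% and 33.3%. Of the 14 low stretches it alone had groups apart, and over all windows 6.59% had groups apart in this direction. Parthenotes were also higher by 2.84 points at the 10418 other far CpGs. There control 1 alone was low, at 78.4% against 86.4 to 89.2% in the other embryos, and the groups overlapped. Over the 25 deep CpGs here control 1 was the highest control. Whether the differences share a source was not tested. The smallest edgeR adjusted p of a window with the nearer cluster was 0.995.

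The last of the 10 largest clusters lay in an intron of PPP1R9A, with 5 members in 284 bp (74890952 to 74891235). It was at 6.45%, 6.81% and 3.0% in the controls and at 6.61%, 8.37% and 13.9% in the parthenotes. Parthenote 3 was highest and the groups overlapped. The 4 clusters with 3 or 4 members lay in CALCR, the calcitonin receptor gene, in the span of LOC102163402 (2 clusters) and 21166 bp beyond the end of PEG10. Their mean levels were 10.5 to 20.1%. Chosen after its values were seen, the cluster beyond PEG10 was at 36.0% in control 1 and at 2.04 to 17.4% in the other 5 embryos.

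**Figure D3:**
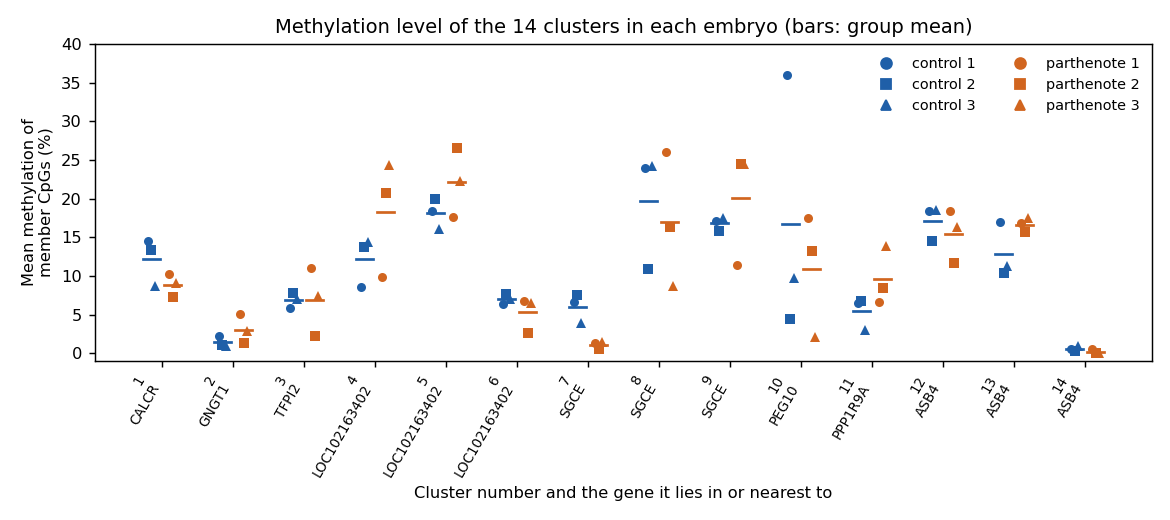
Mean level of the member CpGs (percent) of each of the 14 clusters, numbered by position, with 1 point per embryo and a bar for each group's mean of 3. Points of the groups overlap in 13 clusters; in cluster 7, in SGCE, the 3 parthenotes lie below the 3 controls.

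CpGs that the rule did not use gave a check of the clusters, though many share reads with members. The spans of the 14 clusters held 18 CpGs that were too shallow for the rule or lacked a strand. They were of any annotation and include exonic CpGs of TFPI2. Their pooled level was 10.7% (164 of 1528 reads). It was 81.4% (87757 of 107805 reads) for 1320 such CpGs elsewhere, only intronic or intergenic ones at the same distance from promoters. The clusters differed in this. In the TFPI2 cluster, which held 12 of the 18, 7 of 838 reads were methylated (0.84%), and in the array 1 of 99 (1.01%). Between BET1 and COL1A2 it was 103 of 397 (25.9%, 4 CpGs) and in the nearer cluster upstream of ASB4 53 of 194 (27.3%, 1 CpG). Beyond the clusters, deep CpGs that are no members had a mean level of 40.2% at 1 to 250 bp from a cluster edge (44 CpGs), 65.4% at 251 to 500 bp (45) and 76.2% at 501 to 1000 bp (73). The TFPI2 exon carried much of the first value: 14 of the 44 lay there, with a mean of 1.37%. Without the TFPI2 cluster the means were 58.3% (30 CpGs), 76.4% (35) and 76.0% (70), and 86.0% at 1001 to 2000 bp (131). None of these was under 30% (0), which the rule fixes for intronic and intergenic CpGs that are no members. The low stretches, measured from the cluster edges out to the nearest CpGs at 70% or more, were 703 to 2910 bp long with a median of 1283 bp. They were not low throughout. Within clusters 4, 6, 8, 12 and 13 the highest CpG that is no member was at 70.9 to 84.5%. With reads pooled over all CpGs, the stretches in the span of LOC102163402 were at 39.8% and 40.6%. The stretches of the pair upstream of ASB4 overlap each other.

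The low level was found again in embryos that did not choose it. With the rule applied to the 3 controls alone, 178 CpGs were chosen. In the 3 parthenotes these had a mean of 14.6%, and 157 (88.2%) were under 30% there, with 1 at 50% or more. With the rule applied to the 3 parthenotes alone, 171 were chosen, with a mean of 13.8% in the controls, 157 (91.8%) under 30% and 3 at 50% or more. A rise towards the mean is built into such a choice.

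As a set, the members were at the same level in controls and parthenotes within the spread of the embryos, and no single one passed the test. The comparison asks where methylation differs in embryos without a paternal genome. The rule does not fix its outcome, since it used the mean over both groups, which bounds the difference but not its sign. The mean level of the 170 was 14.7%, 11.104% and 12.4% in controls 1 to 3 and 13.3%, 12.2% and 12.2% in parthenotes 1 to 3. The group means were 12.7% ± 1.8 (SD, n = 3) and 12.6% ± 0.62 (SD, n = 3), a difference of -0.15 points. The parthenote mean was higher at 70 members, lower at 83 and equal at 17, with a median difference of 0 points. At 156 members (91.8%) the groups differed by less than 10 points, against 87.2% of the other far CpGs. The rule forces part of this count, since the 56 members with a mean under 5% cannot differ by 10 points. Over all 12359 tested CpGs the median difference was 2.0 points.

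**Figure D4:**
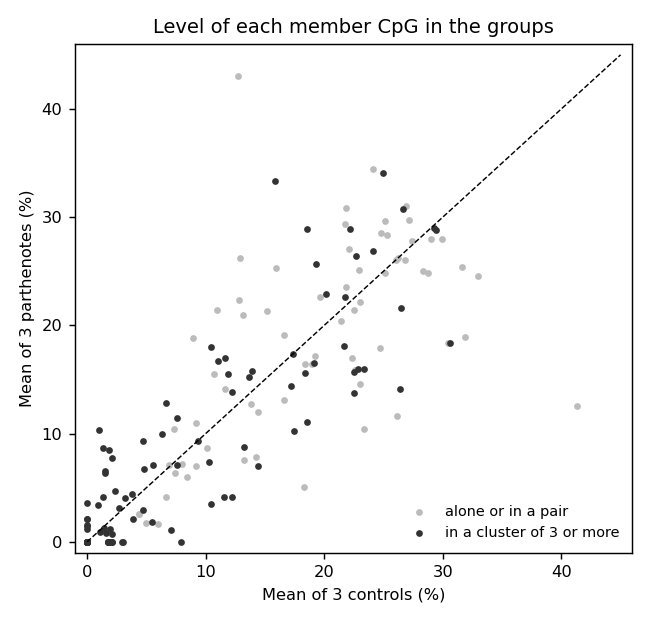
Each point is a member, with its mean level in 3 controls (percent, x axis) and in 3 parthenotes (percent, y axis); the dashed line marks equal levels. Of the 170 points, 83 lie below the line and 70 above it, and 10 of the 14 that differ by 10 points or more are not in a cluster.

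In the edgeR test fitted on all 12359 CpGs with 10 reads in every embryo, 0 of the 170 members were called at an adjusted p under 0.05, against 0.429% of all CpGs. The tested CpGs and windows include the imprinted block that the rule left out, so shares over all of them are not those of far CpGs alone. At an unadjusted p under 0.05 there were 5 members (2.94%, against 3.29% of all CpGs), 2 higher and 3 lower in parthenotes. DESeq2 and limma also called 0 members. Fisher's exact test, which adds up the reads of a group and so takes no account of differences among its embryos, called 2. Over all 12359 CpGs it called 358. The embryos of the groups did not overlap at 3 members that were higher in parthenotes (1.76%, against 6.04% of all CpGs) and 5 that were lower (2.94%, against 1.47%). Of the 57 windows of 500 bp that hold a member, edgeR, DESeq2 and limma called 0, while edgeR called 0.314% of all 1911 windows. Fisher's exact test called 11 of the 57, and 321 of the 1911. The groups did not overlap in 4 of the 57 that were higher (7.02%, against 6.59% of all windows) and 1 that was lower (1.75%, against 0.419%). A single window, that of the CpG array, had an unadjusted p under 0.05 (2.46% of all windows did). Each member had 10 to 54 reads per embryo.

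The 5 members with the largest differences lay in 3 places, and the groups overlapped at 4 of the 5. An intergenic CpG between BET1 and COL1A2 (74091314), which stands alone, was at 0%, 33.3% and 5.0% in the controls and at 17.6%, 71.4% and 40% in the parthenotes (15 to 28 reads, edgeR adjusted p = 1, unadjusted p = 0.0199). The groups overlapped there, and parthenote 2 was highest. A CpG in an intron of SGCE (74407339) was at 35.3%, 18.2% and 70.4% in the controls and at 17.1%, 15.2% and 5.26% in the parthenotes (27 to 46 reads, edgeR adjusted p = 1, unadjusted p = 0.0143). The groups did not overlap there, though control 2 and parthenote 1 lay close together and control 3 stood far above the rest.

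Of the other 3, a CpG at 73874913, inside LOC102163402, was at 3.03%, 33.3% and 11.11% in the controls and at 7.5%, 34.3% and 58.3% in the parthenotes. One in an intron of ASB4 (75135453) was at 34.8%, 9.38% and 34.2% against 11.11%, 20.7% and 3.03%. The last, in an intron of SGCE (74448384), was at 5.26%, 26.3% and 7.14% against 27.5%, 29.3% and 21.9%. In all 3 the groups overlapped, control 2 stood apart from controls 1 and 3, and the edgeR adjusted p was 1.

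The other 3 members with an unadjusted p under 0.05 lay in SGCE, in PEG10 and upstream of ASB4. The CpG with the smallest p (74464153), in the first SGCE cluster, was at 7.32%, 12.5% and 3.85% in the controls and at 0% in each parthenote. In the edgeR test over all CpGs its unadjusted p was 0.00872 and its adjusted p 0.781. The parthenotes together had 0 methylated reads of 87 there (27, 35 and 25 in parthenotes 1 to 3). Summed, these reads allow a level of up to 3.45%, close to that of control 3. That limit takes no account of differences among embryos, and for each parthenote alone it is higher. A CpG in an intron of PEG10 (74478324), close beyond the imprinted block, was at 27.3%, 8.33% and 19.2% in the controls and at 6.67%, 2.44% and 6.06% in the parthenotes, at 26 to 41 reads, and the groups did not overlap. Its unadjusted edgeR p was 0.0409 and its adjusted p 1. A CpG upstream of ASB4 (75100951) was at 2.94%, 0% and 0% in the controls and at 0%, 6.67% and 24.2% in the parthenotes. The groups overlapped, with an unadjusted edgeR p of 0.0402 and an adjusted p of 1.

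Single embryos differed more than groups at some members. The range over the 6 embryos had a median of 15.6 points and was over 30 points at 30 members (17.6%), 21 of them outside clusters. Among the 10418 other far CpGs the median was 17.3 points and the share 17.0%. At an SGCE intron CpG (74405456), chosen after its values were seen, the levels were 48.5%, 2.70% and 44.4% in the controls and 50%, 6.90% and 0% in the parthenotes (29 to 37 reads, with at most 5.88% A on the opposite strand). Controls 1 and 3 and parthenote 1 were high there and the other 3 embryos low. Over the 170 members, levels of control 2 correlated most with those of parthenote 3 (Pearson r = 0.823) and least with those of control 1 (r = 0.356). Control 1 correlated with parthenote 1 at r = 0.658 and with control 3 at r = 0.653. These are descriptions over CpGs, many of which share reads, and the members' common low or high places raise every r. Over the 10418 other far CpGs the values for control 2 were 0.731 with parthenote 3 and 0.516 with control 1.

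**Figure D5:**
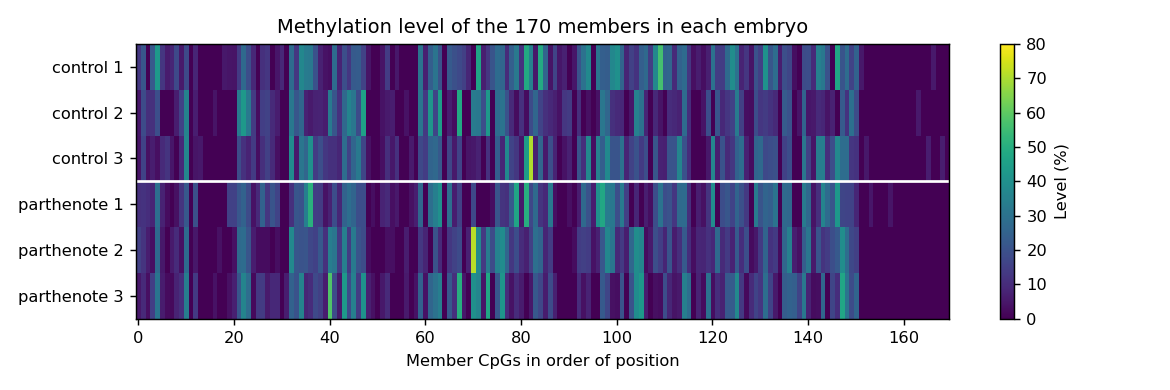
Level (percent, colour) of each of the 170 members, in order of position from left to right, in the 3 controls (upper rows) and the 3 parthenotes (lower rows). The dark band at the right end is the CpG array of 19 members near 0% in every embryo; bright cells are single embryos at single CpGs, such as 71.4% in parthenote 2.

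Control 1 had the highest mean level at the members, 14.7% against 11.104 to 13.3% in the other 5 embryos, and the lowest at the other far CpGs, 78.4% against 86.4 to 89.2%. It was alone the highest embryo at 43 members and alone the lowest at 18, and alone the lowest at 5467 of the 10418 other far CpGs. At the 284 low CpGs nearer promoters it was at 3.17%, against 3.19 to 3.58% in the others. With the members chosen again without control 1, their group difference was 0.67 points. Its part in the results was not tested beyond leaving it out.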

How the data were processed

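Whole-genome bisulfite libraries of 3 control embryos and 3 parthenotes were made with a commercial kit, per the labels' protocols. The submitters' processing notes name BSMAP 2.87 and the Sscrofa11.1 build. Trimming, duplicate removal and mapping settings are not given in the sources used here. Per the file headers, the authors deposited read counts of C and of C or T for each CpG cytosine. They also deposited an expected count corrected by the opposite-strand G share, and a methylation fraction with its interval. The raw counts were used, summed over both strands.

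Levels are methylated over total reads per CpG. A level of several CpGs is the unweighted mean over CpGs, or pooled reads where said. Clusters were runs of at least 3 members, neighbours at most 500 bp apart. Methylated and unmethylated counts were tested with edgeR 4.0.16 (quasi-likelihood, a coverage term per embryo, Benjamini-Hochberg over all tested units) in R 4.3.3, on CpGs with 10 reads in every embryo and on 500 bp windows that held 3 or more CpGs and, in each embryo, 30 or more reads. The tests were tried on simulated counts. DESeq2 1.42.0, limma 3.58.1 (0.5 reads added) and Fisher's exact test were alternatives, as were other limits, the corrected totals, embryos left out and a replicate block. The median depth of a CpG was 27.0 to 29.0 reads across embryos. Limits for counts of 0 cover counting error only and are given for single CpGs, since the labels name no molecular identifiers and reads span several CpGs. Named were the 10 clusters with the most members, the 5 members with the largest difference, those called, and the 3 CpGs on each side of the level limit; the members with an unadjusted p under 0.05 were added later. The members and lists were chosen with earlier results of these data known. The planned sequences and motif search were not made, as no genome sequence was used here. Gene positions came from the RefSeq gene table of Sscrofa11.1, and strands from the promoter columns. Figures used matplotlib 3.10.9, and the tables came from Python 3.11.15 (scipy 1.17.1, pandas 2.3.3, numpy 2.4.6).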

Additional observations from a re-analysis of the deposited data

How the results depend on the processing

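The number of members was 107 with 20 reads required in every embryo, against 170, and 238 with a limit of 40%. Leaving out 1 embryo gave 169 to 178 members, 13 to 15 clusters, a group difference of -1.17 to 0.67 points, and 0 called member CpGs and windows. With reads added up within groups, Fisher's exact test called 2 member CpGs, at 74091314 and 74407339, and 11 member windows, against 0 and 0 with edgeR. In all, Fisher's exact test called 358 of 12359 CpGs and 321 of 1911 windows. Over all alternatives the number of clusters was 10 to 21 (21 with a limit of 40%) and the difference -1.38 to 1.42 points, the ends coming from choosing members on the parthenotes or on the controls alone, which builds in a difference. Leaving out the array of 19 members, an alternative chosen after seeing the data, gave a difference of -0.11 points. Replicate numbers do not pair the embryos (correlations of same-numbered deviations over all CpGs of 0.0876, 0.0716 and -0.0894). Over the members alone these were 0.32, 0.115 and -0.42. The highest there was 0.638, of control 2 with parthenote 3. With a replicate block edgeR called 0 members and 80 CpGs in all, against 53. Depth limits single members: a level at 30 reads moves by several points with 1 read.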
